A study of Mus musculus with 15 samples.

Results

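The genes described here are the transcripts of the mouse mitochondrial genome and the nuclear genes that copy, transcribe and process that genome. Members were chosen by name: every row whose symbol begins with mt-, with blank symbols filled from the gene ID, and a list of 22 nuclear machinery genes. The rule found 15 mitochondrial rows, namely 13 protein-coding genes and the rRNA genes mt-Rnr1 and mt-Rnr2, so that 37 members stood among the 12721 genes tested together and the 13172 genes listed in at least 1 group. All 37 were listed for all 5 groups and none was removed by the low-count filter.

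RNA was sequenced from B16.F10 cells, an established mouse melanoma line of wild-type genotype, grown in 1% oxygen throughout. There were 5 groups of 3 libraries. Control received no treatment, NC_siRNA a transfected negative control siRNA, and Hif1a_siRNA one that targets Hif1a, each siRNA as a lipoplex at 25 nM. Dox was exposed to 0.25 µM doxorubicin for 24 h without transfection, and Hif1a_siRNA_Dox was first transfected as Hif1a_siRNA was and 24 h later exposed as Dox was. Every group comes from this 1 line, the labels number the libraries as biological replicates but do not describe separate cultures, and p-values measure the spread between these libraries. No group received the negative control siRNA with doxorubicin. The labels do not give the time from transfection to harvest in the groups without the drug. Lipoplex and time cannot be told apart from the Hif1a siRNA in Hif1a_siRNA_Dox against Dox. The same holds where drug effects with and without the siRNA are compared. Hif1a_siRNA_Dox and Hif1a_siRNA both had the lipoplex, but between them time since transfection cannot be told apart from doxorubicin.

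Mitochondrial DNA is a small circle from which both strands are transcribed by a single-subunit RNA polymerase, POLRMT, with the factors TFAM and TFB2M. The long transcripts carry rRNAs, tRNAs and the mRNAs of respiratory chain subunits in series, and are cut mainly at the tRNAs that lie between the other genes. The pieces then receive short poly(A) tails, are held by an RNA-binding complex or are degraded inside the organelle. Doxorubicin intercalates in DNA and traps topoisomerase II, and HIF-1, of which Hif1a encodes the oxygen-regulated subunit, is known for lowering respiration in hypoxic cells.

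Libraries held 23825110 to 28734303 counted reads. All 7 melanocyte lineage markers were listed, with a summed level of 11750 to 12480 CPM (counts per 1000000 reads) in Control and 37230 to 41140 CPM in Dox. Single markers went both ways: in Dox against Control 5 rose and 2 fell (edgeR, adjusted p under 0.05), beside 43.9% and 39.8% of all genes. Pmel rose from a mean of 3449 to 12950 CPM, and Sox10 fell from 199.9 to 28.5 CPM. None of 5 epithelial markers and 1 of 6 leukocyte markers were listed (Cd68, 16.5 to 25.8 CPM in Control and 3.70 to 5.71 CPM in Dox). Of 6 fibroblast and endothelial markers 2 were listed (Col1a1 and Pdgfra), with a summed level of 5.44 to 5.84 CPM in Control, 33.0 to 57.0 CPM in Dox and 65.1 to 85.5 CPM in Hif1a_siRNA_Dox. These marker levels moved with doxorubicin, some up and some down. The mitochondrial rows also changed with the drug, and the part of the markers in the results was not tested. The targeted transcript Hif1a had a mean of 274 CPM in NC_siRNA and 17.2 CPM in Hif1a_siRNA, and 142 CPM in Dox and 13.1 CPM in Hif1a_siRNA_Dox.

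A feature of the mitochondrial genome limits what single rows can show. Neighbouring genes share bases: mt-Atp8 and mt-Atp6 share 43, mt-Nd5 and mt-Nd6, which lie on opposite strands, share 14, and mt-Nd4l and mt-Nd4 share 7. The mt-Atp8 and mt-Atp6 overlap is shown because the values of these rows were close to each other in every comparison. It lies on the plus strand of the mitochondrial chromosome in GRCm38 at positions 7927 to 7969, and the capitals mark the first codon of mt-Atp6 and the last codon of mt-Atp8.
mt-Atp8 and mt-Atp6 overlap: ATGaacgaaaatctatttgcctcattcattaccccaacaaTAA
A read from this stretch can belong to either gene, and reads can also come from near-identical nuclear copies of mitochondrial DNA, so values of single rows are uncertain to that extent. Whether the counting used strand is not given in the sources used here. Without strand, reads of mt-Nd6 along its whole length cannot be told apart from RNA of the other strand. The mRNA library kit selects poly(A) RNA, so a row's level depends on its poly(A) tails as well as on its amount. In RNA from a whole culture, fewer cells of a kind and less RNA per cell cannot be told apart, and a rise in CPM is a rise in a transcript's share of the library.

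Untreated cells already showed a wide range of levels among the 15 mitochondrial rows. Per kilobase of gene, mt-Co1, the catalytic core subunit of cytochrome oxidase, was highest in Control at 5200 CPM per kb (4908 to 5540), followed by the ATP synthase subunit mt-Atp6 at 4586 CPM per kb (4108 to 5304). The ranges of these rows overlapped, and both stood above mt-Atp8 (3522 CPM per kb) and mt-Co2 (1833 CPM per kb). At the other end stood mt-Nd6, the protein-coding gene of the light strand, at 27.2 CPM per kb and mt-Nd3 at 21.8 CPM per kb, whose ranges also overlapped. The rRNA rows, mt-Rnr1 for the small and mt-Rnr2 for the large mitochondrial ribosomal subunit, were at ranks 6 and 13 in this order, at 484 and 89.5 CPM per kb. In Dox mt-Rnr1 stood at rank 3 at 5301 CPM per kb, with a range that overlapped that of mt-Atp8 (5148 CPM per kb), and mt-Rnr2 at rank 7 at 1404 CPM per kb. The first place of mt-Co1 held in all 5 groups, with means of 12190 CPM per kb in Dox, 14110 in Hif1a_siRNA_Dox, 5854 in Hif1a_siRNA and 6278 in NC_siRNA.

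**Figure D1:**
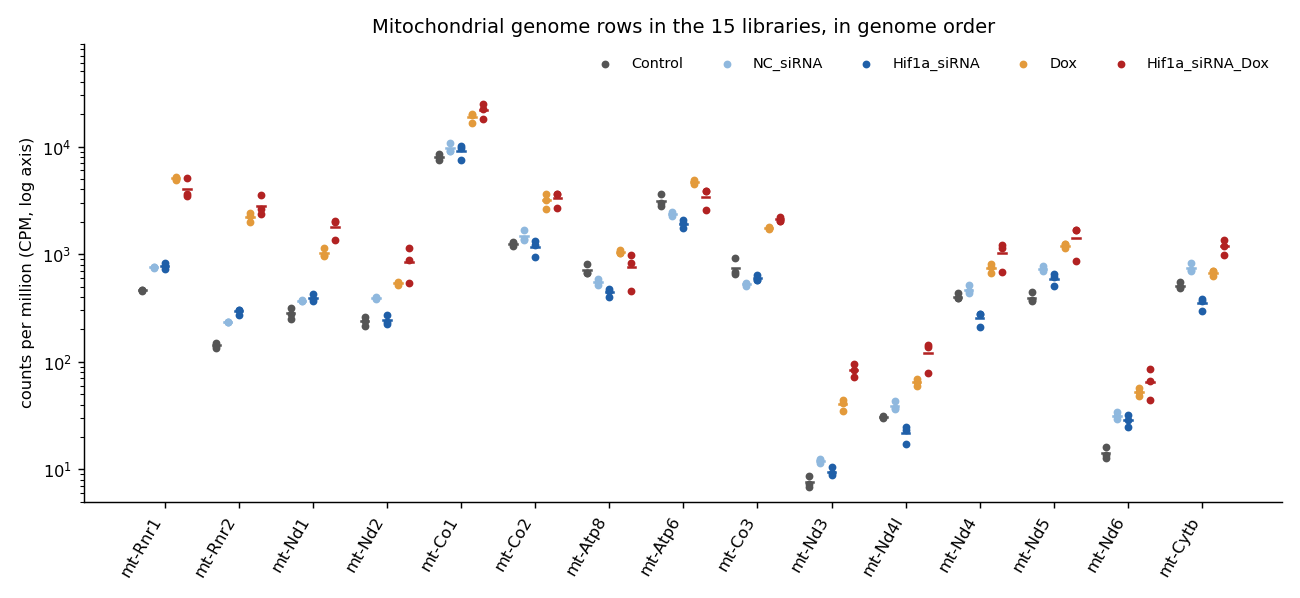
Level of each of the 15 mitochondrial rows in each library, in CPM on a log axis, with rows in genome order. Points are libraries and short lines are means of 3, coloured by group; in mt-Rnr1 the Dox libraries lie between 4866 and 5273 CPM and the Control libraries between 459 and 467 CPM.

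Doxorubicin went with a rise of every mitochondrial row. In Dox against Control all 15 rows rose, against 43.9% of all tested genes called higher, and the medians of the log2 fold changes were 1.23 over the mitochondrial rows and 0.10 over all genes. The mitochondrial rows made up 1.43, 1.47 and 1.38% of counted reads in the 3 Control libraries and 3.86, 4.08 and 3.37% in the Dox libraries. The groups did not overlap, and the difference of 2.34 percentage points had p = 0.1 in a two-sided exact permutation test, the smallest p that 3 libraries against 3 can give. In this comparison "called" means a Benjamini-Hochberg adjusted p under 0.05 in edgeR's quasi-likelihood test over all 12721 genes, here and below.

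The rRNA rows rose most. mt-Rnr1 measured 459, 467 and 461 CPM in Control and 4866, 5273 and 5047 CPM in Dox, a log2 fold change of 3.45 ± 0.11 (SE; adjusted p = 3.9e-17). mt-Rnr2 measured 141, 134 and 150 CPM in Control and 1998, 2390 and 2276 CPM in Dox, a log2 fold change of 3.97 ± 0.12 (adjusted p = 1.5e-16). In both rows the lowest Dox library stood far above the highest Control library. As a share of mitochondrial reads the rRNA rows made up 3.60, 3.58 and 3.91% in Control and 16.4, 17.6 and 19.3% in Dox. That difference of 14.1 percentage points also had the smallest possible p of 0.1 in the exact permutation test. Without the rRNA rows the mitochondrial share stood at 1.38% ± 0.05 (SD, n = 3) in Control and 3.12% ± 0.34 in Dox.

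Protein-coding rows rose by amounts that ranged from a log2 fold change of 0.40 to 2.40. Among subunits of complex I, the NADH dehydrogenase, mt-Nd3 rose most (8.69, 7.28 and 6.79 CPM in Control, 34.6, 44.0 and 41.7 CPM in Dox; 2.40 ± 0.12, adjusted p = 1e-14). The light-strand gene mt-Nd6 (1.89 ± 0.19) and mt-Nd1 (1.87 ± 0.13), whose gene follows mt-Rnr2 after 1 tRNA, came next. Smaller log2 fold changes belonged to mt-Nd5 (1.61 ± 0.21), mt-Nd2 (1.16 ± 0.21), mt-Nd4l (1.08 ± 0.19) and mt-Nd4 (0.89 ± 0.19). The 3 cytochrome oxidase rows rose by similar amounts, mt-Co1 by 1.23 ± 0.13, mt-Co2 by 1.33 ± 0.15 and mt-Co3 by 1.22 ± 0.09 on the log2 scale.

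The smallest rises were in mt-Cytb and in the ATP synthase rows. mt-Cytb, the mitochondrial subunit of complex III, measured 491, 552 and 489 CPM in Control and 691, 699 and 631 CPM in Dox (0.40 ± 0.11, adjusted p = 0.0021). For mt-Atp6 the libraries stood at 3612, 2959 and 2798 CPM in Control and 4875, 4513 and 4663 CPM in Dox (0.58 ± 0.13, adjusted p = 0.00082), and mt-Atp8 rose by 0.55 ± 0.22 (adjusted p = 0.037). In all 3 rows the groups did not overlap. The mt-Atp8 call was the least stable, with adjusted p from 3.8e-05 to 0.099 over its 16 alternatives and 7 of them above the threshold. As shares of mitochondrial reads, mt-Atp6 and mt-Atp8 together fell from 26.5, 21.6 and 22.2% in Control to 14.3, 12.7 and 15.0% in Dox, values that do not overlap and on which no test was run. mt-Cytb was 3.12% ± 0.17 (SD, n = 3) of mitochondrial reads in Control and 1.64% ± 0.03 in Dox.

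**Figure D2:**
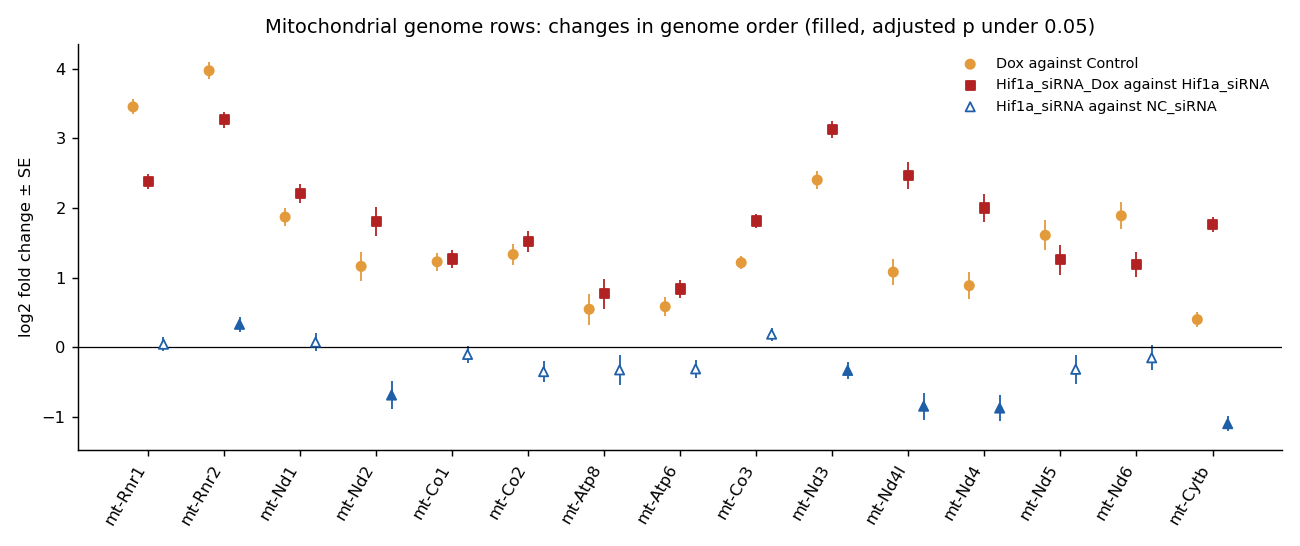
Log2 fold change with its SE for each mitochondrial row in genome order, for doxorubicin without and with the Hif1a siRNA and for the Hif1a siRNA alone; filled symbols have an adjusted p under 0.05. All doxorubicin symbols lie above 0, those of mt-Rnr1 and mt-Rnr2 highest without the siRNA (3.45 and 3.97), and mt-Cytb is the lowest of the siRNA symbols (-1.10).

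After the Hif1a siRNA doxorubicin again went with higher levels of every mitochondrial row. In Hif1a_siRNA_Dox against Hif1a_siRNA all 15 rows rose (42.6% of all genes were called higher), with a median log2 fold change of 1.81 against 0.04 over all genes. Mitochondrial reads were 1.97, 2.11 and 1.64% of counted reads in Hif1a_siRNA and 4.88, 3.90 and 5.07% in Hif1a_siRNA_Dox (exact permutation p = 0.1, the smallest possible). The second Hif1a_siRNA_Dox library was the lowest of its group in 14 of the 15 rows, and it had the largest total of all libraries, 28734303 reads. Without it all 15 rows were again called higher. The third Hif1a_siRNA library was the lowest of its group in 13 rows. Over all genes Hif1a_siRNA_Dox libraries differed most from each other. Chi-square per degree of freedom was 25.15, 33.2 and 34.59 for their pairs and 3.564 to 16.74 for pairs within the other groups. As all groups share the dispersion estimates, p-values of comparisons with Hif1a_siRNA_Dox may be too small. In mt-Atp8 the libraries of the groups overlapped, in the other rows they did not. The groups also did not overlap in 20 of the 22 machinery genes. The share over all genes was not counted, so neither count can be set against it.

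The size of the doxorubicin effect differed between the settings for some rows, at a share of calls in either direction not above that of all genes. The test of the difference, which is the effect after the siRNA minus the effect without it, called 5 rows higher and 3 lower (26.3% and 32.3% of all genes). mt-Cytb, mt-Nd4l and mt-Nd4 rose more after the siRNA, by 1.36 ± 0.15, 1.38 ± 0.27 and 1.11 ± 0.27 on the log2 scale (adjusted p = 4.5e-07, 0.00056 and 0.0038). mt-Nd3 (0.72 ± 0.17) and mt-Co3 (0.60 ± 0.13) were the other two called higher. mt-Rnr1 and mt-Rnr2 rose less, by -1.07 ± 0.14 and -0.70 ± 0.15 (adjusted p = 1.6e-06 and 0.00054), as did mt-Nd6 (-0.70 ± 0.26, adjusted p = 0.032). The mt-Nd6 call was lost in 10 of 22 alternatives, with adjusted p from 0.00037 to 0.084. Without the second Hif1a_siRNA_Dox library 9 rows were called higher, mt-Nd1, mt-Nd2, mt-Atp6 and mt-Atp8 being added. The baselines differed as well, since mt-Cytb stood at 366, 381 and 296 CPM in Hif1a_siRNA and at 491, 552 and 489 CPM in Control.

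Between the 2 drug groups the mitochondrial rows moved in both directions. In Hif1a_siRNA_Dox against Dox 7 rows were called higher and 2 lower (21.5% and 20.8% of all genes). The mean share of mitochondrial reads was 4.62% ± 0.63 (SD, n = 3) against 3.77% ± 0.36, with overlapping libraries (exact permutation p = 0.2). mt-Nd3 measured 83.2, 72.5 and 94.4 CPM against 34.6, 44.0 and 41.7 CPM in Dox, without overlap (1.06 ± 0.11, adjusted p = 7.5e-08). mt-Nd4l, mt-Nd1 and mt-Cytb rose by 0.88 ± 0.18, 0.81 ± 0.13 and 0.81 ± 0.11 on the log2 scale, whereas mt-Atp6 fell by 0.45 on that scale (SE 0.13, adjusted p = 0.013). The rRNA rows went opposite ways, mt-Rnr1 lower (-0.32 ± 0.10, adjusted p = 0.012) and mt-Rnr2 higher (0.35 ± 0.11, adjusted p = 0.012), but the libraries of the groups overlapped in both. Without the first Dox library the count of rows called higher was 4. Without the second Hif1a_siRNA_Dox library mt-Rnr1 missed the threshold (adjusted p = 0.058), and mt-Nd4, mt-Nd5 and mt-Nd6 passed it.

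The ratio of the rRNA rows to each other is free of library scaling. mt-Rnr2 had 30.7, 28.6 and 32.6 reads per 100 mt-Rnr1 reads in Control and 31.7, 30.7 and 30.9 in NC_siRNA. The ratio stood at 35.5, 36.7 and 41.8 in Hif1a_siRNA and at 41.1, 45.3 and 45.1 in Dox. In Hif1a_siRNA_Dox it was highest, at 72.7, 68.1 and 69.2, above every Dox library. The groups were fully separate in Dox against Control, Hif1a_siRNA against NC_siRNA and both comparisons of Hif1a_siRNA_Dox (exact permutation p = 0.1 in each, the smallest possible), while NC_siRNA and Control overlapped (exact permutation p = 0.7). The second Hif1a_siRNA_Dox library, low in most rows, lay beside the others of its group in this ratio.

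**Figure D3:**
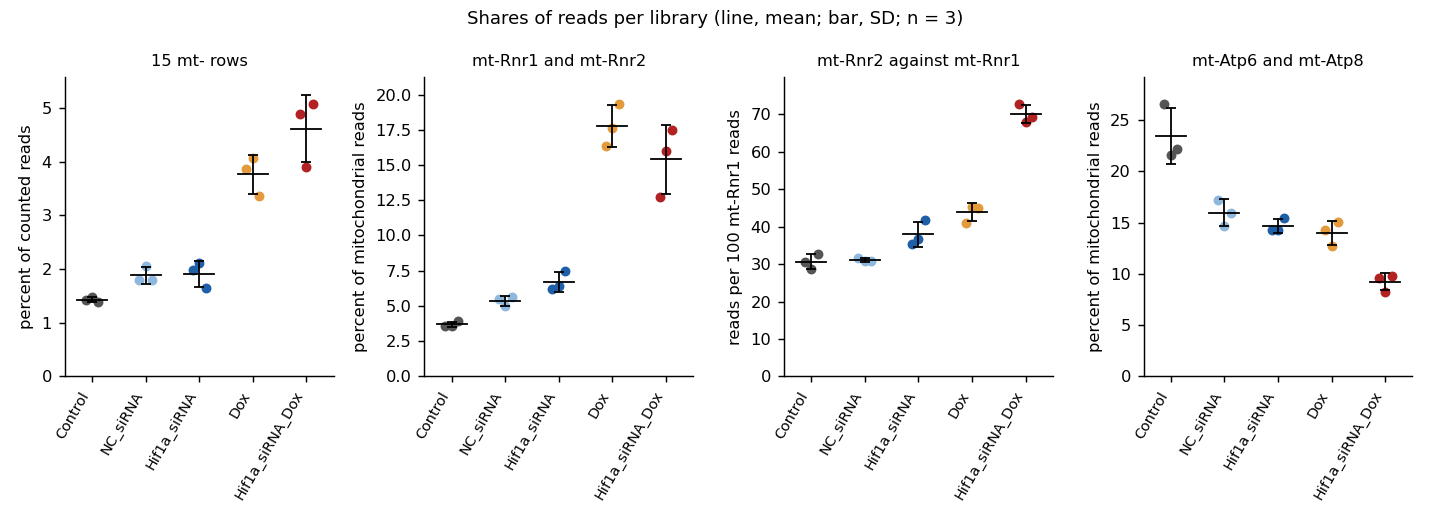
Shares per library by group: mitochondrial reads as percent of counted reads, rRNA rows as percent of mitochondrial reads, mt-Rnr2 reads per 100 mt-Rnr1 reads, and ATP synthase rows as percent of mitochondrial reads. Points are libraries, lines are means and bars are SD (n = 3); the rRNA share is 3.58 to 3.91% in Control and 16.4 to 19.3% in Dox, and the ATP synthase share is lowest in Hif1a_siRNA_Dox (8.27 to 9.79%).

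The Hif1a siRNA without the drug went with lower levels of 5 respiratory chain rows. In the fit of all 15 libraries this count was near the share of all genes called lower. In Hif1a_siRNA against NC_siRNA 5 of the 15 rows fell and 1 rose (31.2% of all genes were called lower and 36.4% higher). mt-Cytb measured 712, 825 and 692 CPM in NC_siRNA and 366, 381 and 296 CPM in Hif1a_siRNA, without overlap (-1.10 ± 0.11, adjusted p = 4.1e-08). The complex I rows mt-Nd4 (-0.87 ± 0.19, adjusted p = 0.0016), mt-Nd4l (-0.84 ± 0.19, adjusted p = 0.0015), mt-Nd2 (-0.68 ± 0.21, adjusted p = 0.011) and mt-Nd3 (-0.33 ± 0.12, adjusted p = 0.02) also fell. mt-Rnr2 rose from 235, 234 and 234 CPM to 274, 304 and 305 CPM (0.33 ± 0.11, adjusted p = 0.01). The total did not follow: the mitochondrial share was 1.88% ± 0.15 (SD, n = 3) in NC_siRNA and 1.91% ± 0.24 in Hif1a_siRNA, with overlapping libraries (exact permutation p = 0.9). mt-Co1, which alone made up 52.6% of mitochondrial reads in NC_siRNA and 56.0% in Hif1a_siRNA, had a log2 fold change of -0.10 ± 0.13 (adjusted p = 0.5). A fit of only these 2 groups called 9 rows lower and 2 higher. Over all 12668 genes in that fit, 4801 were called lower and 4827 higher, so the reading of the count depends on the fit.

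Mitochondrial rows also differed between NC_siRNA and Control, with a share of rows called in either direction near that of all genes. Control had no lipoplex, so siRNA and lipoplex cannot be told apart here. In NC_siRNA against Control 8 rows rose and 2 fell (33.1% and 33.7% of all genes), and the share of mitochondrial reads went from 1.43% ± 0.05 (SD, n = 3) to 1.88% ± 0.15 without overlap (exact permutation p = 0.1). mt-Nd6 measured 13.6, 16.1 and 12.7 CPM in Control and 29.3, 34.3 and 31.2 CPM in NC_siRNA (1.16 ± 0.19, adjusted p = 7.7e-05). mt-Nd5, from the facing strand, rose by 0.89 ± 0.21, mt-Rnr2 by 0.72 ± 0.11 and mt-Rnr1 by 0.70 ± 0.10 on the log2 scale. mt-Co3 fell by 0.52 (SE 0.09) and mt-Atp6 by 0.40 (SE 0.13) on that scale. mt-Cytb rose here (0.54 ± 0.11, adjusted p = 0.00022), so that its level in Hif1a_siRNA (348 CPM ± 45.3, SD, n = 3) was below both NC_siRNA (743 ± 71.5) and Control (511 ± 35.6). With the first Control library or the third NC_siRNA library left out, 1 row instead of 2 was called lower.

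The nuclear machinery did not move as 1 block with doxorubicin. In Dox against Control 9 of the 22 genes rose, 9 fell and 4 were not called, beside 43.9% of all genes called higher and 39.8% lower. The median log2 fold change of the 22 was 0.04, and single genes ran from -2.72 to 4.02. The largest rises were those of Twnk, Pprc1, Polg2, Elac2 and Polg, and the largest falls those of Ssbp1, Mtpap, Mterf4 and Tfb1m.

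**Figure D4:**
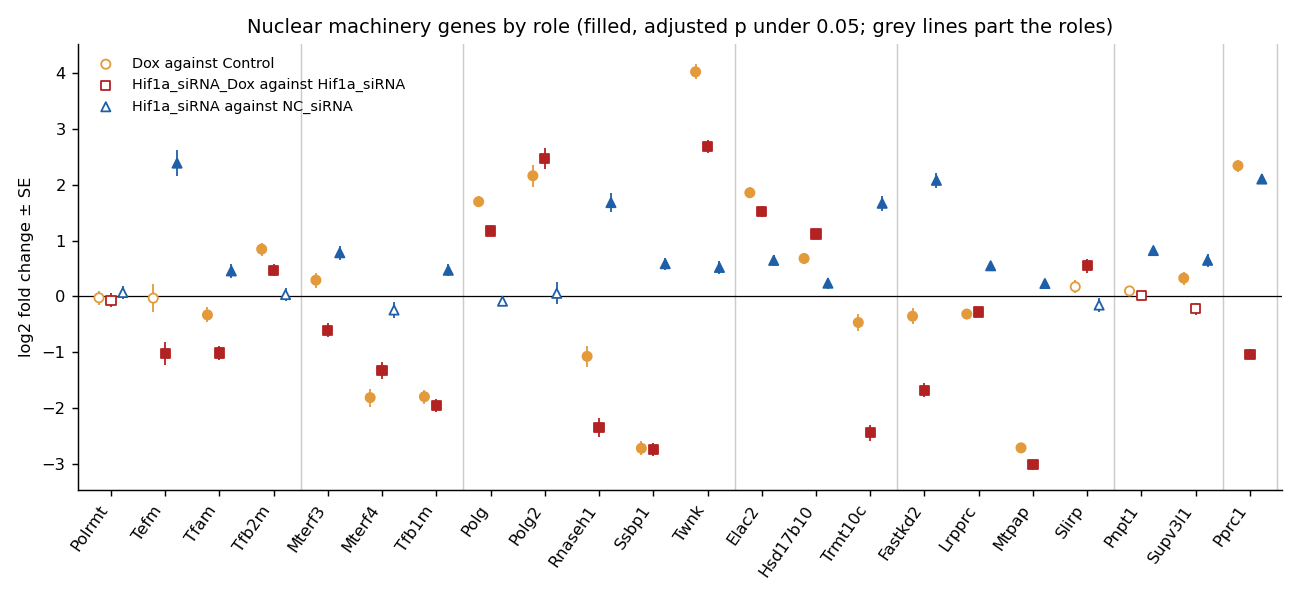
Log2 fold change with its SE for the 22 nuclear machinery genes, grouped by role from transcription at the left to the coactivator Pprc1 at the right, for doxorubicin without and with the Hif1a siRNA and for the siRNA alone; filled symbols have an adjusted p under 0.05. Without the siRNA Twnk is highest with doxorubicin (4.02) and Mtpap and Ssbp1 are lowest (-2.71 and -2.72), and no siRNA symbol below 0 is filled.

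Of the 4 genes that start and extend transcription, 1 rose with the drug, 1 fell and 2 were not called. Over all genes 43.9% were called higher and 39.8% lower. Polrmt, the mitochondrial RNA polymerase, measured 21.0, 19.9 and 20.5 CPM in Control and 18.9, 18.8 and 22.8 CPM in Dox, with overlapping libraries (-0.02 ± 0.13, adjusted p = 0.87). It was called in none of the 6 tests, and its group means lay between 18.3 and 20.5 CPM. Tfam, which packages mitochondrial DNA and opens its promoters, fell by 0.33 on the log2 scale (SE 0.13, adjusted p = 0.026), from 20.5, 23.3 and 21.4 CPM to 15.1, 16.8 and 19.9 CPM. That call missed the threshold in 5 of 16 alternatives. Tfb2m, the factor that melts the promoter with the polymerase, rose from 8.60, 8.60 and 9.82 CPM to 18.2, 15.3 and 15.2 CPM (0.85 ± 0.12, adjusted p = 4.8e-07). The elongation factor Tefm measured 1.15, 2.12 and 1.82 CPM in Control and 1.45, 1.93 and 1.60 CPM in Dox, with overlapping libraries (-0.03 ± 0.25, adjusted p = 0.92), and its low level gives it the largest SE of the 22.

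Replication genes moved in opposite directions. Twnk, the replicative helicase, measured 6.27, 3.75 and 4.33 CPM in Control and 73.6, 86.6 and 73.0 CPM in Dox, a log2 fold change of 4.02 ± 0.14 (adjusted p = 5.1e-18) and the largest of the 22. The polymerase gamma genes rose too, the catalytic Polg from a mean of 24.4 to 79.1 CPM (1.70 ± 0.09) and the accessory Polg2 from 3.97 to 17.8 CPM (2.16 ± 0.20). Ssbp1, which coats single-stranded mitochondrial DNA beside the helicase, fell from 27.4, 31.7 and 32.6 CPM to 5.56, 4.45 and 3.90 CPM (-2.72 ± 0.13, adjusted p = 1.5e-15). Rnaseh1, which removes RNA from RNA-DNA hybrids in the nucleus and the mitochondrion, fell by 1.07 on the log2 scale (SE 0.19). Within this role 3 genes rose and 2 fell, beside 43.9% of all genes called higher and 39.8% called lower.

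Some of these genes share exonic bases with neighbours on the other strand, and whether the counting used strand is not given in the sources used here. Twnk shares 12.6% of its exonic bases with Mrpl43, which fell from a mean of 60.2 to 19.4 CPM (-1.64 ± 0.12) where Twnk rose. Polg shares 8.57% with Fanci, which had a log2 fold change of -0.24 ± 0.12 (adjusted p = 0.078). Mterf4 shares 35.2% with Sned1, Slirp shares 93.9% with Snw1, and Mtpap shares 18.5% with the antisense gene Gm26865. Snw1 fell from a mean of 180.1 CPM in Control to 49.44 CPM in Dox (-1.865 ± 0.078). Reads from the shared bases cannot be told apart without strand. Among the 22 nuclear genes Slirp shares the largest part of its exonic bases, so in this respect its values are the most uncertain of these.

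Of the genes for 12S rRNA methylation and of the MTERF family, 2 fell with the drug and 1 rose. Beside them, 39.8% of all genes were called lower and 43.9% higher. Tfb1m, which dimethylates the 12S rRNA, fell from 14.9, 14.2 and 14.0 CPM to 4.25, 4.16 and 3.99 CPM (-1.80 ± 0.12, adjusted p = 2.2e-12). Mterf4, which assists assembly of the large ribosomal subunit, fell by 1.81 on the log2 scale (SE 0.16), while its overlapping neighbour Sned1 rose by 3.49 ± 0.26. Mterf3 rose by 0.29 ± 0.13 (adjusted p = 0.045), a call that 11 of 16 alternatives did not make.

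Of the genes for cutting and tailing transcripts, some rose and others fell. Elac2, which cuts the 3′ ends of tRNAs, rose from 12.7, 13.2 and 13.5 CPM to 45.3, 50.5 and 46.8 CPM (1.86 ± 0.10, adjusted p = 1.4e-14). The partners in the enzyme that cuts the 5′ ends split, Hsd17b10 rising by 0.68 ± 0.09 and Trmt10c falling by 0.47 (SE 0.15, adjusted p = 0.0063) on the log2 scale. Mtpap, the mitochondrial poly(A) polymerase, fell from 72.7, 63.9 and 66.9 CPM to 9.76, 11.2 and 10.1 CPM (-2.71 ± 0.09, adjusted p = 5.2e-18), without overlap, a value that may include reads of the antisense gene Gm26865. Lrpprc, which with Slirp holds mitochondrial mRNAs, fell by 0.31 (SE 0.07), and Fastkd2, an RNA granule protein that binds the 16S rRNA, fell by 0.35 (SE 0.14, adjusted p = 0.025, lost in 5 of 16 alternatives). Of the decay enzymes Pnpt1 had a log2 fold change of 0.10 ± 0.07 (adjusted p = 0.18) and Supv3l1 rose by 0.33 ± 0.11. Pprc1, a nuclear coactivator of respiratory genes, rose from 3.84, 4.63 and 4.33 CPM to 21.94, 22.04 and 20.93 CPM (2.34 ± 0.11, adjusted p = 2.1e-15).

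**Figure D5:**
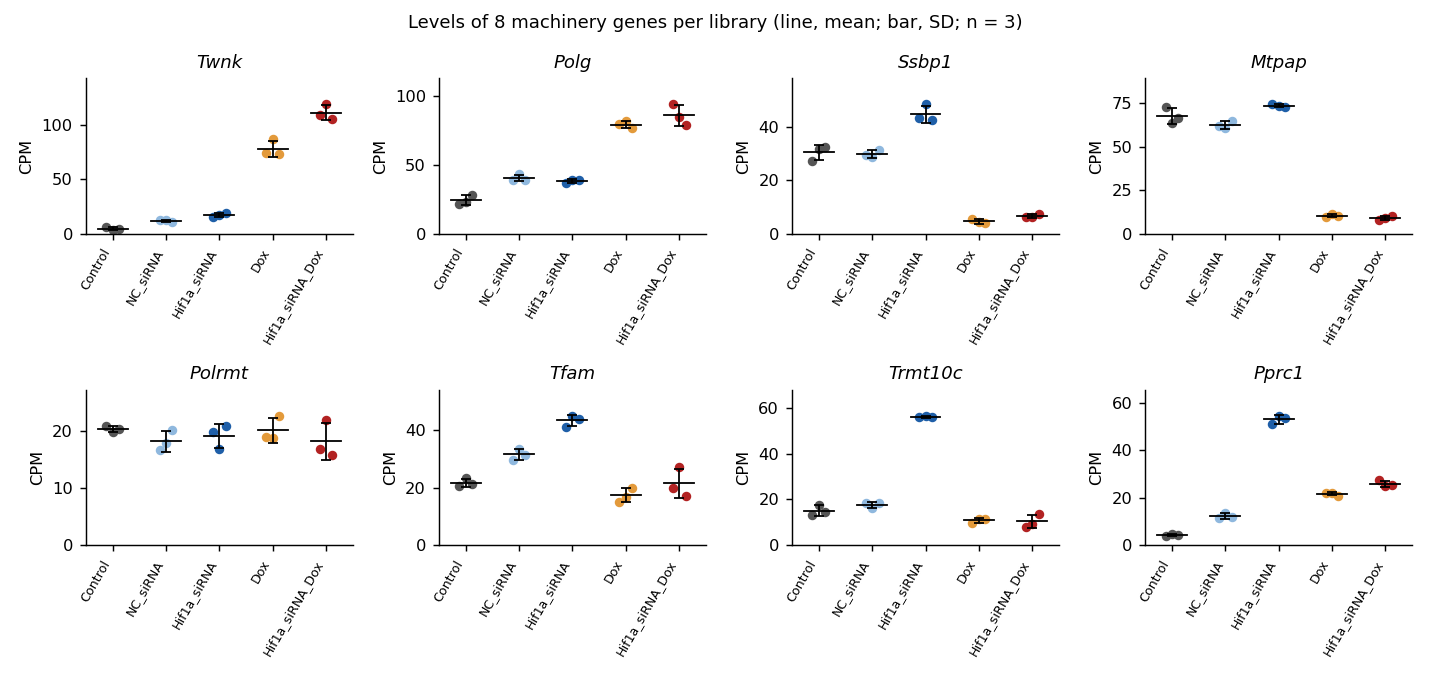
Level in CPM of 8 machinery genes in each library by group; points are libraries, lines are means and bars are SD (n = 3). Twnk and Polg are high and Ssbp1 and Mtpap low in both doxorubicin groups, Polrmt overlaps in all groups, and Trmt10c and Pprc1 are highest in Hif1a_siRNA.

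Promoters of the machinery genes were read for letters that the nuclear respiratory factors NRF-1 and GABP are known to bind, and separately for the E-box letters. RefSeq promoters of GRCm38.p6, 250 bases before to 50 after a start, were read for 19 of the 22 genes, 20 promoters in all. Promoters of Mterf3, Mtpap and Rnaseh1 were not among those read, so the motif counts leave these genes out and say nothing of their promoters. On both strands the GABP letters CCGGAAG were found in 10 of the 20 promoters and in 8.86% of all 32851 promoters, and the NRF-1 letters GCGCANGCG in 15.0% and 6.25%. The E-box letters CACGTG were in none of the 20 and in 7.15% of all. Of the 10 genes with the GABP letters, 3 rose with doxorubicin (Polg, Polg2 and Twnk), 4 fell (Mterf4, Ssbp1, Tfam and Trmt10c) and 3 were not called (Polrmt, Slirp and Tefm). Among all tested genes 43.9% were called higher and 39.8% lower in Dox against Control. The sequences below are shown because their genes did different things with the drug: Twnk and Polg2 rose, Ssbp1 fell and Polrmt was not called. Capitals mark the GABP letters, read as CTTCCGG where they lie on the other strand, and in Polrmt also the run that holds 2 overlapping NRF-1 matches.
Twnk, chr19:45006308-45006607, plus strand: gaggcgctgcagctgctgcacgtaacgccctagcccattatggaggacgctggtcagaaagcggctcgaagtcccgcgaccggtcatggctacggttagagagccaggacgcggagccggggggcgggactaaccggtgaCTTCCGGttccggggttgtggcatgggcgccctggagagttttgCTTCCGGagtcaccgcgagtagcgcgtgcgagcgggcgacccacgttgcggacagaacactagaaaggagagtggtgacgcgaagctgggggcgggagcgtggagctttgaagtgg
Polg2, chr11:106779488-106779787, minus strand: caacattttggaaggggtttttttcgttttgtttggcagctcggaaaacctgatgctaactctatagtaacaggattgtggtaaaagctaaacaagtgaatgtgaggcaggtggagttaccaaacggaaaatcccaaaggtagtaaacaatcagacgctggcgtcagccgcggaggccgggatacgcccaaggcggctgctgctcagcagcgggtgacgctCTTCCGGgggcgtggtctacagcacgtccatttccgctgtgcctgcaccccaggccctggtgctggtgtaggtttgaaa
Ssbp1, chr6:40471218-40471517, plus strand: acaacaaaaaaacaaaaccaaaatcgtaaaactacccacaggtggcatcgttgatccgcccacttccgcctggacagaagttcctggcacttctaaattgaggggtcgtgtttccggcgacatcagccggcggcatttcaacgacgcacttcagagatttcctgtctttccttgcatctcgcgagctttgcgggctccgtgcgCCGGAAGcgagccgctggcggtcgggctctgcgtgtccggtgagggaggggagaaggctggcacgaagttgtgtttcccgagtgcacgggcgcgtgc
Polrmt, chr10:79746532-79746831, minus strand: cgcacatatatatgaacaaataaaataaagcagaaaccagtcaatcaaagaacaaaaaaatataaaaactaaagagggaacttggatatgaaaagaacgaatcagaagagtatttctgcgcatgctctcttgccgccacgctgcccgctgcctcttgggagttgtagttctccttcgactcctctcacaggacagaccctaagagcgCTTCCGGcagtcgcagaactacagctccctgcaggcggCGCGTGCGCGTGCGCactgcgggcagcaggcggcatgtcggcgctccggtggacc
These matches describe letters in a window and say nothing of binding, and Twnk has another start upstream whose promoter holds none of the 3 motifs.

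The Hif1a siRNA without the drug raised most of the machinery. In Hif1a_siRNA against NC_siRNA 16 of the 22 genes rose and none fell, beside 36.4% of all genes called higher and 31.2% called lower. Of the remaining 6, 3 had a log2 fold change below 0 (Mterf4, Polg and Slirp), and a fit of only these 2 groups called 2 of them lower, Mterf4 (-0.29, adjusted p = 0.0036) and Slirp (-0.20, adjusted p = 0.0055). The median log2 fold change of the 22 was 0.53, against 0.06 over all genes and -0.31 over the 15 mitochondrial rows.

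Tefm showed the largest of these rises, from 1.15, 1.14 and 1.26 CPM in NC_siRNA to 5.50, 6.47 and 6.67 CPM in Hif1a_siRNA (2.39 ± 0.23, adjusted p = 3.1e-09). Pprc1 rose from 11.3, 13.7 and 12.1 CPM to 51.1, 54.6 and 53.8 CPM (2.103 ± 0.096, adjusted p = 4.6e-15). For Fastkd2 the libraries stood at 5.04, 6.41 and 6.77 CPM and at 25.9, 25.7 and 25.4 CPM (2.08 ± 0.13, adjusted p = 2.4e-12). The siRNA libraries of these genes lay above every control siRNA library. Trmt10c and Rnaseh1 followed with log2 fold changes of 1.67 ± 0.14 and 1.68 ± 0.17.

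Smaller rises were found in genes of several roles. Tfam rose from 29.7, 33.6 and 31.4 CPM to 41.2, 45.0 and 43.9 CPM (0.46 ± 0.12, adjusted p = 0.0024), and the decay genes Pnpt1 and Supv3l1 rose by 0.82 ± 0.07 and 0.65 ± 0.11 on the log2 scale. Ssbp1 (0.59 ± 0.11), Twnk (0.52 ± 0.12), Lrpprc (0.55 ± 0.07), Elac2 (0.65 ± 0.10), Mterf3 (0.78 ± 0.13) and Tfb1m (0.47 ± 0.11) rose as well. Polrmt (0.07 ± 0.12), Tfb2m (0.03 ± 0.11), Polg (-0.08 ± 0.09) and Polg2 (0.06 ± 0.20) did not pass the test. Hsd17b10 rose by 0.24 ± 0.10 (adjusted p = 0.036), a call lost in 7 of 16 alternatives.

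The control siRNA group itself differed from untreated cells. In NC_siRNA against Control 5 machinery genes rose and 7 fell, beside 33.1% and 33.7% of all genes. Pprc1, Twnk, Tfb2m, Polg and Tfam rose by 1.54 ± 0.11, 1.33 ± 0.14, 0.83 ± 0.12, 0.73 ± 0.09 and 0.54 ± 0.13 on the log2 scale. Hsd17b10 fell by 0.93 (SE 0.10), Lrpprc by 0.71 (SE 0.07) and Pnpt1 by 0.71 (SE 0.07). Pnpt1, for example, measured 63.3, 63.0 and 63.1 CPM in Control, 38.6, 39.9 and 37.5 CPM in NC_siRNA and 72.4, 66.5 and 66.3 CPM in Hif1a_siRNA. Its level in Hif1a_siRNA thus stood well above NC_siRNA and nearer to that of untreated cells.

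With doxorubicin after the Hif1a siRNA 12 machinery genes fell. In Hif1a_siRNA_Dox against Hif1a_siRNA 7 genes rose beside those 12 (42.6% of all genes were called higher and 41.6% lower), and the median log2 fold change was -0.44. Twnk, Polg2, Elac2, Polg, Hsd17b10, Slirp and Tfb2m rose, by 2.69 ± 0.12, 2.47 ± 0.18, 1.53 ± 0.09, 1.17 ± 0.09, 1.12 ± 0.09, 0.55 ± 0.12 and 0.47 ± 0.11 on the log2 scale. Mtpap measured 74.4, 73.4 and 72.7 CPM in Hif1a_siRNA and 8.05, 9.19 and 10.1 CPM in Hif1a_siRNA_Dox, the largest fall (-3.01 ± 0.09, adjusted p = 9.3e-19). Ssbp1 followed at -2.75 ± 0.12.

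The difference of the doxorubicin effects was below 0 for 13 machinery genes that passed the test and above 0 for 1, beside 32.3% and 26.3% of all genes. Pprc1 had the largest difference: the drug went with a rise from 4.27 to 21.6 CPM without the siRNA and with a fall from 53.2 to 25.9 CPM after it (-3.38 ± 0.14, adjusted p = 5.1e-15). Trmt10c (-1.97 ± 0.20, adjusted p = 3.6e-08), Twnk (-1.33 ± 0.18, adjusted p = 9.6e-07), Fastkd2 (-1.32 ± 0.19, adjusted p = 3.4e-06) and Rnaseh1 (-1.28 ± 0.26, adjusted p = 0.00021) were next. Hsd17b10 was the gene called above 0 (0.44 ± 0.13, adjusted p = 0.0071). Of the 13 calls below 0, those of Mtpap, Tfb2m and Elac2 were lost in 16, 14 and 9 of 22 alternatives. For several of these genes the groups differed before the drug: Trmt10c stood at 55.8, 56.5 and 56.0 CPM in Hif1a_siRNA and 13.2, 17.6 and 14.4 CPM in Control, and both drug groups lay between 8.08 and 13.7 CPM.

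Levels in the 2 drug groups lay closer together. In Hif1a_siRNA_Dox against Dox 7 machinery genes were called higher, 2 lower and 13 neither (21.5% and 20.8% of all genes), and the largest log2 fold change was 0.88. Tefm rose by 0.88 ± 0.23, Polg2 by 0.81 ± 0.17, Ssbp1 by 0.53 ± 0.14, Twnk by 0.51 ± 0.11 and Tfb2m by 0.48 ± 0.11 on the log2 scale. Hsd17b10 (-0.26 ± 0.09) and Slirp (-0.39 ± 0.12) were the genes called lower, and Slirp missed the threshold without the second Hif1a_siRNA_Dox library (adjusted p = 0.07). Without the third Dox library 1 gene instead of 2 was called lower.

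Other nuclear genes of mitochondrial gene expression were counted from lists of the pathway. Of 20 mitochondrial aminoacyl-tRNA synthetases, which charge the organelle's tRNAs, 11 rose and 8 fell in Dox against Control. Ears2, for glutamate, rose from a mean of 0.78 to 34.9 CPM (5.48 ± 0.18, adjusted p = 3.2e-18), while Nars2, for asparagine, fell from 22.02 to 2.26 CPM (-3.28 ± 0.14) and Wars2, for tryptophan, from 16.9 to 1.83 CPM (-3.20 ± 0.17). Of 30 genes of mitochondrial RNA processing and modification 15 rose and 12 fell. Of all genes 43.9% were called higher and 39.8% lower. The pseudouridine synthase gene Pus1 rose by 2.97 ± 0.12 and Pusl1 by 4.19 ± 0.24, whereas Lactb2, a mitochondrial endoribonuclease, fell from 97.0 to 12.0 CPM (-3.02 ± 0.11).

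In the lists of translation factors, RNA granule genes and nuclear regulators more members fell than rose with the drug. Of 15 translation factors 5 rose and 9 fell, among them the release factor gene Mtrf1l (2.92 ± 0.14) and Oxa1l, which inserts new proteins into the inner membrane (-2.04 ± 0.13). Of 8 genes of the RNA granule and FASTK family 3 rose and 5 fell, with Fastk at -3.07 ± 0.09 and Grsf1, an RNA-binding protein of the granule, at -2.11 ± 0.11. Of 10 nuclear regulators 3 rose and 6 fell: the coactivator Ppargc1a fell from 47.9 to 7.97 CPM (-2.59 ± 0.12), and its relative Ppargc1b rose from 1.90 to 7.46 CPM (1.97 ± 0.25). Of 16 genes of mitochondrial DNA maintenance and nucleoid proteases 7 rose and 7 fell, Top3a, a topoisomerase of the nucleus and the mitochondrion, rising from 5.48 to 138 CPM (4.66 ± 0.12, adjusted p = 2.1e-20). In each of these lists the members went both ways, as they did over all genes, of which 43.9% were called higher and 39.8% lower.

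The same lists had more members called higher than lower with the Hif1a siRNA alone, where 36.4% of all genes were called higher and 31.2% lower. The counts were 17 higher and 2 lower of 30 for RNA processing and modification, 11 and 2 of 20 for the synthetases, 8 and 0 of 15 for translation factors and 8 and 4 of 16 for DNA maintenance. For the RNA granule genes 4 rose and 2 fell of 8, and for the nuclear regulators 6 rose and 2 fell of 10. Fastkd5, a protein of the RNA granule, rose from a mean of 1.46 to 6.49 CPM (2.15 ± 0.25), and Mrm3, a methyltransferase of the 16S rRNA, from 1.47 to 6.46 CPM (2.13 ± 0.23). Rexo2, an oligoribonuclease, rose from 32.1 to 111 CPM (1.79 ± 0.09, adjusted p = 1.1e-14). The coactivator Ppargc1a rose by 0.80 ± 0.10, in contrast to its fall with doxorubicin.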

How the data were processed

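Gene-level raw counts, made and deposited by the authors for 15 libraries, were used as deposited; the submitters' processing notes name the mm10 build and StringTie 2.1.3b, HISAT2 2.1.0, Bowtie2 2.3.4.1, Trimmomatic 0.38 and FastQC 0.11.7, and per the labels' protocols the libraries came from a TruSeq Stranded mRNA kit. Strand setting and treatment of multi-mapping reads are not given in the sources used here. Blank symbols (1491) were filled by gene ID from RefSeq GRCm38.p6. The members and lists were chosen with earlier results of these data known. The 12721 genes listed for all 5 groups were fitted together with edgeR 4.0.16 in R 4.3.3 (TMM, a group term, robust quasi-likelihood F tests, two-sided, minimum count 10, 10 residual degrees of freedom). P-values were adjusted by Benjamini-Hochberg separately for each comparison over all 12721 genes, and called under 0.05. CPM values use TMM-scaled totals, and levels per kb divide by the annotated gene length. Shares were compared by two-sided exact permutation tests, 5 comparisons for each share. All 37 members may be named; of each wider list the 3 called genes with the largest change in Dox against Control and the 2 in Hif1a_siRNA against NC_siRNA were eligible if the higher group averaged 5 CPM or more. Genes overlapping a member (Mrpl43, Fanci, Sned1 and Snw1) were named after their values were seen. Totals of 23825110 to 28734303 reads leave counting error of weight only in rows with few reads. The fit was tested on simulated counts. Alternatives were RLE and upper-quartile factors, nuclear genes only in the totals, DESeq2 1.42.0, limma-voom (limma 3.58.1), an adjusted p under 0.01, no filter, 1 CPM in 3 libraries, a replicate block, only the groups compared, and leaving out each library.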

Additional observations from a re-analysis of the deposited data

Results flagged for a closer look

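The doxorubicin effect differed with and without the Hif1a siRNA for 22 of the 37 members. This was the test of the difference itself (edgeR, adjusted p under 0.05), which called 26.3% of all genes higher and 32.3% lower. The share of members called is thus near that of all genes. Negative values mean a lower effect after the siRNA. Among mitochondrial rows the log2 differences were -1.07 for mt-Rnr1, -0.70 for mt-Rnr2, -0.70 for mt-Nd6, 0.60 for mt-Co3, 0.72 for mt-Nd3, 1.38 for mt-Nd4l, 1.11 for mt-Nd4 and 1.36 for mt-Cytb. Among machinery genes they were -3.38 for Pprc1, -1.97 for Trmt10c, -1.33 for Twnk, -1.32 for Fastkd2, -1.28 for Rnaseh1, -0.99 for Tefm, -0.90 for Mterf3, -0.68 for Tfam, -0.55 for Supv3l1, -0.53 for Polg, -0.38 for Tfb2m, -0.33 for Elac2, -0.30 for Mtpap and 0.44 for Hsd17b10. The calls of Mtpap, Tfb2m, mt-Nd6 and Elac2 were lost in 16, 14, 10 and 9 of 22 alternatives, with adjusted p up to 0.13, 0.14, 0.084 and 0.11.

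Rows of mitochondrial tRNAs carry RefSeq symbols that do not begin with mt-, so the rule leaves them out. Of 6 such rows, 5 were not listed for all groups and were not tested, and each had more reads in the doxorubicin groups than in Control. The clearest is mt-Tl1, a leucine tRNA gene that fills the plus strand of the mitochondrial chromosome from 2676 to 2750 (GRCm38), directly between mt-Rnr2 and mt-Nd1.
mt-Tl1: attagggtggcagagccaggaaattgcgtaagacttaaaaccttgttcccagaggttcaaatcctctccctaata
It had 4, 5 and 3 reads in Control, 23, 28 and 43 in Hif1a_siRNA, 48, 75 and 59 in Dox and 325, 220 and 349 in Hif1a_siRNA_Dox. Its mean level was 0.15 CPM in Control, 2.40 in Dox and 11.3 in Hif1a_siRNA_Dox, and the last stood above every Dox library. In the same order the mean levels were 0.10, 4.15 and 6.71 CPM for mt-Tw, 0.09, 1.56 and 2.83 CPM for mt-Tm, 0.09, 0.42 and 1.00 CPM for mt-Ti, and 0.18, 0.78 and 0.80 CPM for mt-Tf. Control libraries held 1 to 6 reads of each, so the lower levels carry a large counting error. Reads in these rows may also come from long transcripts not yet cut, such as those joining mt-Rnr2, mt-Tl1 and mt-Nd1. These cannot be told apart from the tRNAs. The mt-Ti row shares bases with the end of mt-Nd1, and the mt-Tw row with that of mt-Nd2.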

How the results depend on the processing

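Of 3774 values of single members under the alternatives, 3555 kept their direction and their side of the threshold, 153 lost and 66 gained a call, and no called value changed sign. All 15 mitochondrial rows were called higher in Hif1a_siRNA_Dox against Hif1a_siRNA whichever library was left out, and 14 to 15 in Dox against Control. Upper-quartile factors moved the median log2 fold change of all genes by 0.13 in Dox against Control and 0.15 in Hif1a_siRNA_Dox against Hif1a_siRNA. Small counts moved most, and the cause was not tested beyond the stricter threshold or fewer samples that define a setting.

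At an adjusted p under 0.01, 0 mitochondrial rows rose and 3 fell in Hif1a_siRNA against NC_siRNA, 4 rose and 0 fell in Hif1a_siRNA_Dox against Dox, 1 fell in NC_siRNA against Control, and 0 machinery genes fell in Hif1a_siRNA_Dox against Dox. Fitting only the groups compared, 2 mitochondrial rows rose and 9 fell and 2 machinery genes fell in Hif1a_siRNA against NC_siRNA, and 1 mitochondrial row and 0 machinery genes fell in Hif1a_siRNA_Dox against Dox. Over all genes the first of these fits called 4827 higher and 4801 lower of 12668, and the second 1977 lower of 12619. With RLE factors or DESeq2, 1 machinery gene fell in Hif1a_siRNA_Dox against Dox and 3 had a difference of the doxorubicin effects above 0. From protein-coding rows only, the mitochondrial share was 1.38% in Control, 3.12% in Dox and 3.93% in Hif1a_siRNA_Dox.

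Leaving out each library in turn gave, in Hif1a_siRNA_Dox against Dox, 4 to 10 mitochondrial rows higher, 1 to 3 lower and 1 to 2 machinery genes lower. It gave 1 to 2 mitochondrial rows lower in NC_siRNA against Control, and, for the difference of the doxorubicin effects, 5 to 9 mitochondrial rows and 1 to 2 machinery genes higher. Same-numbered libraries deviated from their group means with correlations of -0.16 to 0.064, so the numbers were not taken to pair the samples; with a replicate block 15 mitochondrial rows rose in Dox against Control and 6 fell in Hif1a_siRNA against NC_siRNA, and no count of calls moved by more than 1.5 times. With the block the differences of the doxorubicin effects of mt-Nd6, Mtpap and Tfb2m missed the threshold (adjusted p = 0.06, 0.058 and 0.061).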

Other observations

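The sixth tRNA row, mt-Ts1, a serine tRNA gene on the minus strand at 6870 to 6938, was listed for all 5 groups at a far higher level than the others. Its last bases, in capitals, are shared with the end of mt-Co1 on the other strand.
mt-Ts1: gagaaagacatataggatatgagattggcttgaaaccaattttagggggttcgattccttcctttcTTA
It had 917, 979 and 893 reads in Control and 2427, 2709 and 2164 in Dox, a log2 fold change of 1.37 ± 0.11 (adjusted p = 3.2e-11), beside 1.23 ± 0.13 for mt-Co1. After the Hif1a siRNA the values were 1.60 ± 0.11 for mt-Ts1 and 1.27 ± 0.13 for mt-Co1. How reads that span the shared bases were assigned, and whether the counting used strand, is not given in the sources used here. Without strand, RNA from the mt-Co1 strand over any part of this row cannot be told apart from the tRNA.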
